A study of Mus musculus with 10 samples.

Results

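The genes described are 10 that encode the core microRNA machinery of the mouse: Drosha, Dgcr8 and Dicer1, which process microRNA precursors, the Argonautes Ago1, Ago2, Ago3 and Ago4, and the Argonaute-binding scaffolds Tnrc6a, Tnrc6b and Tnrc6c. They were chosen by gene symbol, with earlier results of these data known, and all 10 were found among the 15507 genes of the deposited table and among the 15389 that passed the filter on low reads. Expression was measured by RNA-seq of germ cells from 5 WT and 5 KI mice, with 1 library per mouse. KI mice are homozygous for a knock-in of human GRTH that bears the R242H mutation (Ddx25 is the mouse gene of GRTH, a testicular RNA helicase), and all mice were 45 days old and received no treatment named in the labels. The cells were freed from whole testes with collagenase and trypsin, so each library is a mixture of spermatogonia, spermatocytes, spermatids and any testicular somatic cells that came with them. No gene here was measured in 1 cell type alone.

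MicroRNAs are short RNAs that steer Argonaute proteins to partly matching messenger RNAs and so lower the stability and translation of those messages. A primary transcript is cropped in the nucleus by the Microprocessor, a complex of the nuclease Drosha and its RNA-binding partner Dgcr8, and the exported hairpin is cut by Dicer1 to a duplex, of which 1 strand stays in an Argonaute. Argonautes recruit Tnrc6 proteins, which bring deadenylase complexes to the message. In male germ cells Dicer1 and the Microprocessor are needed for spermatogenesis, and Argonaute proteins gather with other RNA-binding proteins in the chromatoid body, a granule of round spermatids where GRTH is found as well.

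The libraries were made from poly(A) RNA, so that mature microRNAs themselves were not measured. The sequences below are the mature microRNAs that lie inside the 10 genes, shown because their hairpins are part of messages counted here, and 1 microRNA for each of 3 host transcripts described later. They are RefSeq sequences on GRCm38.p6, printed 5′ to 3′ with the seed, bases 2 to 8, in capitals. Dgcr8 holds miR-1306 in a coding exon and miR-3618 in a UTR, both on its own strand, and Tnrc6b holds miR-5113 in a UTR. Dgcr8 messages that carry the miR-3618 and miR-1306 hairpins are known as targets of the Microprocessor itself. The 8 sequences have 8 different seeds.
mmu-miR-3618-5p, chr16:18284602-18284623, minus strand, in Dgcr8: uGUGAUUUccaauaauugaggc
mmu-miR-3618-3p, chr16:18284562-18284583, minus strand, in Dgcr8: cUACAUUAaugaaaagagcaau
mmu-miR-1306-5p, chr16:18284288-18284310, minus strand, in Dgcr8: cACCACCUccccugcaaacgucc
mmu-miR-1306-3p, chr16:18284248-18284268, minus strand, in Dgcr8: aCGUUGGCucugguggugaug
mmu-miR-5113, chr15:80940049-80940071, plus strand, in Tnrc6b: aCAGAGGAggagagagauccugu
mmu-miR-22-3p, chr11:75463772-75463793, plus strand, in Mir22hg: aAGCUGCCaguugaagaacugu
mmu-miR-92a-3p, chr14:115044476-115044496, plus strand, in Mir17hg: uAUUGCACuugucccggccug
mmu-miR-9-5p, chr7:79505279-79505301, plus strand, in Mir9-3hg: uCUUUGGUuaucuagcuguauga

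Depth was similar in both genotypes, with 13323024 to 16422347 reads on genes per WT library and 12722086 to 15500582 per KI library, and each of the 10 genes had between 90 and 3278 reads in every library. The values given are normalized counts, that is reads divided by the size factor of the library, and changes are given as KI against WT on the scale of log2(normalized count + 1), tested with limma and adjusted over all genes tested. A gene is said to have risen or fallen at an adjusted p under 0.05, and to be differentially expressed if it also changed by at least 1.5-fold. The targeted gene Ddx25 matched the labels, with means of 8231 ± 2209 in WT and 101 ± 91.7 in KI (SD, n = 5). The KI mean covers 2 levels, with 146, 194 and 161 in KI libraries 1 to 3 and 2.88 and 1.84 in KI libraries 4 and 5, and the log2 change was −5.34 in libraries 1 to 3 alone and −11.6 in libraries 4 and 5 alone. Libraries 1 to 3 and libraries 4 and 5 of both genotypes lay apart on the second principal component of the 500 most variable genes (−9.51 to −2.82 against 6.44 to 11.7). Among marker lists, all 9 genes of elongating spermatids fell (median log2 change −2.27), and their summed normalized count was 232444 to 422147 in WT and 35098 to 70150 in KI. Markers of round spermatids fell in 3 of 8 cases, and 0 of 8 had a higher fitted mean in KI. Their median log2 change was −0.45, with sums of 20015 to 22384 in WT and 12140 to 18817 in KI. Markers of spermatocytes fell in 1 of 9 cases (median −0.12) and of spermatogonia in 1 of 7 (median 0.02). Of somatic markers, 4 of 7 Leydig cell genes (sums of 10875 to 19504 in WT and 15729 to 27046 in KI), 5 of 8 macrophage genes (643 to 839 and 933 to 1327), 3 of 6 tested genes of myoid and endothelial cells (328 to 482 and 545 to 921) and 1 of 8 Sertoli cell genes (5957 to 9832 and 6115 to 10491) rose. In the list of myoid and endothelial genes, Acta2, Vwf and Cdh5 rose. Myh11 (log2 difference −0.30), Tagln (−0.23) and Pecam1 (0.16) did not pass. The sums of that list also hold Cnn1, which was not tested. No marker of these lists was at 0 in all libraries, and the part of cell make-up in the values below was not tested. In such bulk samples, fewer cells of a type and less RNA per cell cannot be told apart.

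None of the 10 machinery genes rose or fell in KI germ cells by limma, although 22.9% of all genes tested did and 14.4% were differentially expressed (6.13% higher and 8.22% lower in KI). At an unadjusted p under 0.05 there was 1 of 10, Ago1, against 34.6% of all genes, and edgeR's quasi-likelihood test and DESeq2 on the recovered reads also found 0 of 10 at the adjusted and 1 of 10 at the unadjusted level. In none of the 10 did the 5 KI libraries stand wholly apart from the 5 WT libraries, which 17.7% of all genes did. The 95% interval of the fold change lay within 1.5-fold in either direction for 9 of 10 (54% of all genes), Ago1 being the exception with an upper bound of 1.56-fold. Fitted means were higher in KI for 9 of 10, against 53.6% of all genes, and the median log2 change was 0.15 against 0.03 for all genes. The exception was Dgcr8. With the library number as a replicate block, a pairing that the labels do not state, Ago1 alone of the 10 passed the adjusted threshold. Its adjusted p was 0.0222 (limma), and 32% of all genes passed in that fit.

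**Figure D1:**
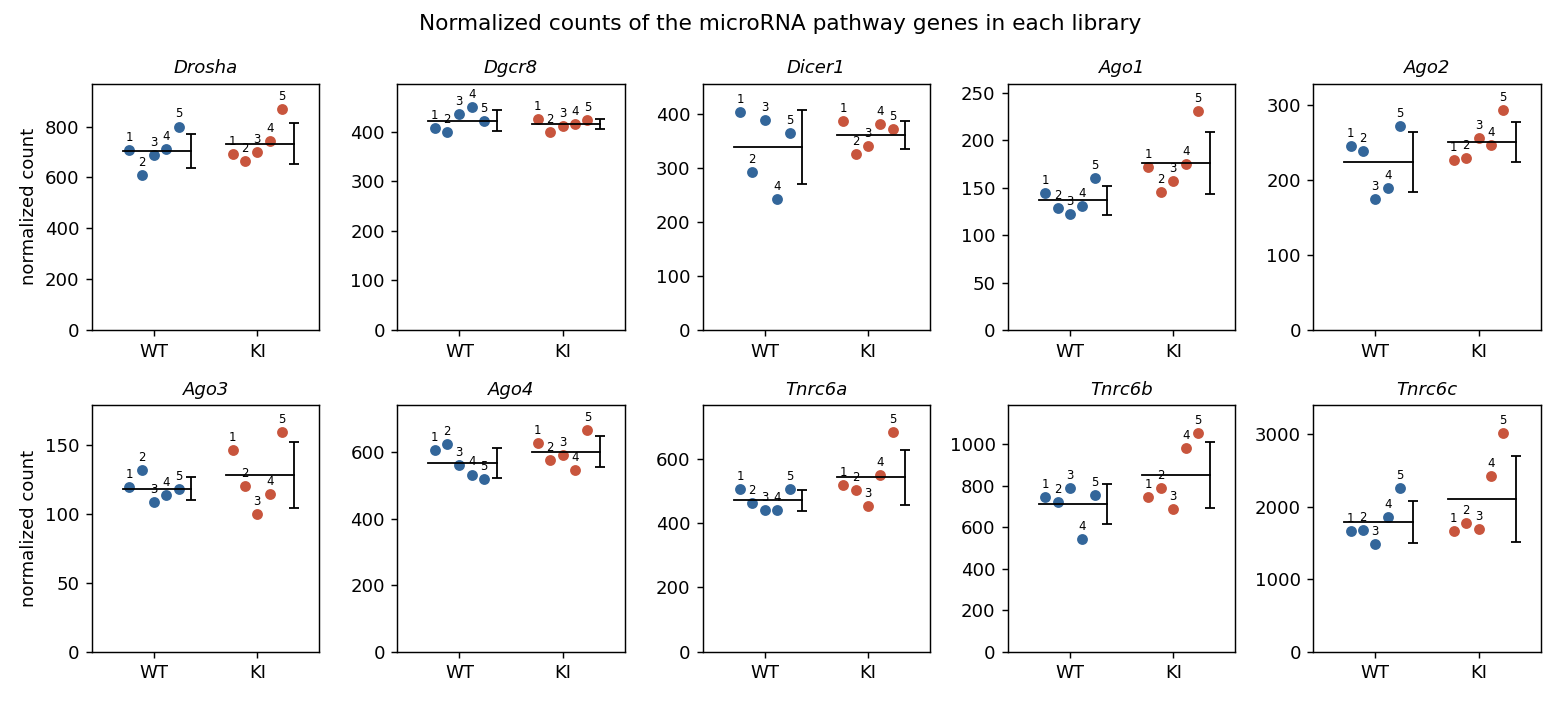
Normalized count of each of the 10 genes in every library (vertical axes, linear and starting at 0), with WT in blue and KI in red, the library number above each point, a line at the mean and a bar for 1 SD at its side (n = 5). The genotypes overlap in every panel, and KI library 5 is the highest of the 10 libraries in 8 of the 10 panels.

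Drosha, the nuclease of the Microprocessor, lies on chromosome 15 from 12824815 to 12935292 (mm10, plus strand). Its normalized counts were 708, 608, 688, 713 and 800 in WT libraries 1 to 5 and 692, 664, 698, 742 and 868 in KI libraries 1 to 5. Only WT library 2 lay below the KI range and only KI library 5 above the WT range, and within each genotype libraries 4 and 5 were the highest. The mean was 704 ± 68.5 in WT and 733 ± 80.4 in KI (SD, n = 5), a log2 change of 0.06 (SE 0.10, 95% interval −0.16 to 0.27, limma, adjusted p = 0.734).

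Dgcr8, the RNA-binding subunit that positions Drosha on the hairpin, lies on chromosome 16 from 18253965 to 18289169 (minus strand). Its counts were 407, 399, 435, 449 and 423 in WT libraries 1 to 5 and 426, 399, 412, 416 and 423 in KI libraries 1 to 5. It was the steadiest of the 10 genes, and every KI value fell inside the WT range. The log2 change was −0.02 (SE 0.08, limma, adjusted p = 0.875) from 423 ± 20.5 to 415 ± 10.6 (SD, n = 5), and it was 0.20 when libraries were scaled to their totals and 0.10 when scaled on spermatocyte markers. Those scalings shift all genes alike, and measured from the all-gene median Dgcr8 stood at −0.05 under all 3 of these scalings. Of its exonic bases 30.5% are overlapped by other genes, mainly the neighbour Trmt2a, and as no source says that strand was used in counting, some of its reads may belong to that neighbour. The ratio of Dgcr8 to Drosha, each as normalized count per kilobase of exon, was 0.559 to 0.694 in WT and 0.516 to 0.651 in KI. The lowest value of each genotype was in library 5.

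Dicer1, the cytoplasmic nuclease that releases the duplex and also makes endogenous small interfering RNAs, lies on chromosome 12 from 104687742 to 104751953 (minus strand). In WT libraries 1 to 5 its counts were 403, 293, 388, 243 and 363, and in KI libraries 1 to 5 they were 386, 325, 341, 380 and 372. The spread was larger in WT, where library 4 was the lowest of all 10, and all KI values lay inside the WT range. Means were 338 ± 67.9 and 361 ± 26.4 (SD, n = 5), with a log2 change of 0.12 (SE 0.14, limma, adjusted p = 0.597), which was −0.032 in libraries 1 to 3 alone and 0.0037 without WT library 4.

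Of the 4 Argonautes, Ago1 had the largest fitted difference. Ago1, Ago3 and Ago4 lie next to each other on chromosome 4, all on the minus strand, and Ago2, the only one of the mouse Argonautes with strong slicing activity, lies on chromosome 15. Ago1 (126435013 to 126468584) had counts of 144, 128, 122, 130 and 160 in WT libraries 1 to 5 and 172, 146, 158, 175 and 231 in KI libraries 1 to 5. KI was the higher of each pair of equal number, although the genotypes overlapped because WT library 5 lay above KI libraries 2 and 3. The mean was 137 ± 15.2 in WT and 176 ± 32.7 in KI (SD, n = 5), a log2 difference of 0.35 (SE 0.14, 95% interval 0.06 to 0.64) that did not pass the adjusted threshold by limma (adjusted p = 0.0825). With the replicate block named above it passed, and with a term for libraries 4 and 5 the adjusted p was 0.0347 (31.3% of all genes passed). Without KI library 5 the log2 difference was 0.25 and the adjusted p 0.192.

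The other 3 Argonautes differed less between genotypes. Ago2 (chromosome 15, 73101625 to 73184948, minus strand) had counts of 245, 238, 175, 189 and 272 in WT libraries 1 to 5 and 227, 229, 256, 246 and 293 in KI libraries 1 to 5. WT libraries 3 and 4 were low and KI library 5 was high, with the remaining libraries mixed, and the log2 difference was 0.17 (SE 0.13, limma, adjusted p = 0.394). Ago3 (126340678 to 126429543) had 119, 132, 109, 113 and 118 in WT libraries 1 to 5 and 146, 120, 99.9, 114 and 159 in KI libraries 1 to 5. KI held both the lowest and the highest Ago3 values, around a log2 difference of 0.10 (SE 0.14, limma, adjusted p = 0.682). Ago4 (126489543 to 126533459), the Argonaute with a described role in meiotic cells, had 607, 624, 562, 534 and 520 in WT libraries 1 to 5 and 628, 576, 591, 547 and 667 in KI libraries 1 to 5. Its groups overlapped broadly, and the log2 difference was 0.08 (SE 0.09, limma, adjusted p = 0.590).

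The Tnrc6 genes encode the GW182 proteins, whose glycine-tryptophan repeats bind Argonautes. Tnrc6a (chromosome 7, 123123885 to 123195297, plus strand) had counts of 505, 461, 442, 442 and 506 in WT libraries 1 to 5 and 519, 504, 454, 549 and 685 in KI libraries 1 to 5. KI library 5 stood above the other 9 libraries, KI libraries 4 and 1 came next, and the log2 difference was 0.19 (SE 0.11, limma, adjusted p = 0.244). Tnrc6b (chromosome 15, 80711313 to 80941087, plus strand) had 745, 720, 787, 543 and 755 in WT libraries 1 to 5 and 744, 791, 686, 981 and 1053 in KI libraries 1 to 5. Libraries 1 to 3 of both genotypes shared 1 range, whereas KI libraries 4 and 5 lay above all others and WT library 4 below all others. Over all libraries the log2 difference of Tnrc6b was 0.25 (SE 0.13, limma, adjusted p = 0.198). In libraries 1 to 3 alone it was −0.022 (adjusted p = 0.875) and in libraries 4 and 5 alone 0.67 (adjusted p = 0.0267, where 11.1% of all genes passed). The test of that difference, an interaction of genotype with the number group in limma, gave 0.69 on the log2 scale with an adjusted p of 0.0972, so it did not pass over all genes. It was added after these values were seen, and 0.247% of all genes passed it.

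Tnrc6c (chromosome 11, 117654289 to 117763442, plus strand) had the highest counts of the 10 genes, with 1662, 1682, 1490, 1858 and 2261 in WT libraries 1 to 5 and 1669, 1773, 1688, 2422 and 3016 in KI libraries 1 to 5. Libraries 4 and 5 were the highest within each genotype. The genotype difference was 0.21 on the log2 scale (SE 0.16, limma, adjusted p = 0.388) and 0.07 without KI library 5. Libraries 4 and 5 were above libraries 1 to 3 by 0.50 with genotype in the model (limma, adjusted p = 0.00125), and Tnrc6c was the only one of the 10 genes to pass that comparison, which 21.5% of all genes passed. What sets these libraries apart is not given in the sources used here.

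**Figure D2:**
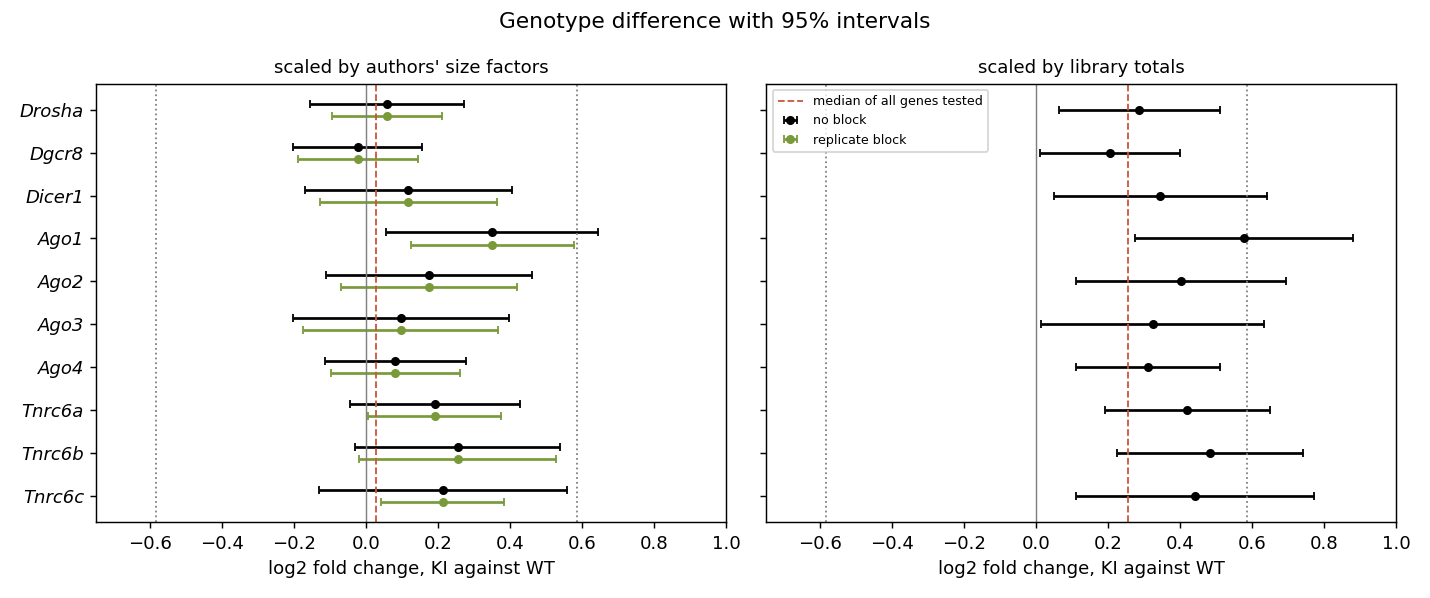
Differences between KI and WT on the log2(normalized count + 1) scale (horizontal axes) for the 10 genes, as limma estimates with 95% intervals, under the deposited size factors (left; black without and green with the replicate block) and under library totals (right). Solid grey lines mark 0, dotted lines a 1.5-fold change and red dashed lines the median of all genes, which moves from 0.03 on the left to 0.25 on the right along with the 10 estimates, Ago1 being the farthest right in both panels at 0.35 and 0.58.

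KI library 5 had the highest value of the 10 libraries in 8 of the 10 genes, all but Dgcr8 and Dicer1, whereas 19.1% of all genes were highest there and 20.6% lowest. Without it the median log2 change of the 10 genes was 0.09 in place of 0.15. Drosha then stood at −0.0049, Ago2 at 0.12, Ago3 at 0.013, Ago4 at 0.043, Tnrc6a at 0.10 and Tnrc6b at 0.17. Ago2 was at 0.091 without WT library 3, Ago3 at 0.044 without KI library 1 and 0.18 without KI library 3, Ago4 at 0.049 without WT library 5, and Tnrc6a kept to between 0.17 and 0.25 when any other library was left out. The summed normalized count of the 4 Argonautes was 966 to 1123 in WT and 1072 to 1350 in KI, and that of the 3 Tnrc6 genes was 2720 to 3522 in WT and 2828 to 4754 in KI. Both sums overlapped between the genotypes and were highest in KI library 5.

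The count of machinery genes past the threshold moved most with the scaling. The deposited size factors make the typical gene equal across libraries, while scaling to library totals raises the median log2 change of all genes from 0.03 to 0.25 and the share of all genes past the adjusted threshold to 40.5%. On that scale 7 of the 10 genes passed by limma, all with positive changes between 0.29 and 0.58, and the median of the 10 was 0.37. On both scales 9 of the 10 lay above the median of all genes, the exception being Dgcr8. Differential expression over all genes was upward in 73.1% of cases on this scale and in 42.7% on the deposited one.

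Levels were compared between genes as normalized counts per kilobase of exon, with all annotated exons of a gene merged (GENCODE vM21 on mm10). In WT the order was Tnrc6c with 194, Drosha with 154, Dgcr8 with 97.8, Ago4 with 87.1, Tnrc6a with 57.6, Tnrc6b with 41.0, Dicer1 with 34.3, Ago1 with 19.0, Ago2 with 16.2 and Ago3 with 7.58 normalized counts per kilobase. Tnrc6c thus stood at the 66.7th percentile of 15158 genes with a length and Ago3 at the 9.8th. Each gene was above the next in all 10 libraries except that Dgcr8 was above Ago4 in 8 of 10. Across the WT libraries the ranges of 4 neighbouring pairs overlapped, namely Tnrc6c with Drosha, Dgcr8 with Ago4, Tnrc6b with Dicer1 and Ago1 with Ago2. Long UTRs can lower such values, so the comparison was repeated per kilobase of coding sequence, a choice made after seeing the data. The counts still held reads from UTRs, so this division raises genes with long UTRs and does not correct for them. Ago2, for example, has 13800 exonic and 2580 coding bases. Tnrc6c stayed first with 314 and Ago3 last with 45.8, while Ago4 moved to the second place with 220. Dgcr8 with 182 moved above Drosha with 171, and Ago2, with 86.7, moved above Tnrc6a, Dicer1 and Ago1.

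**Figure D3:**
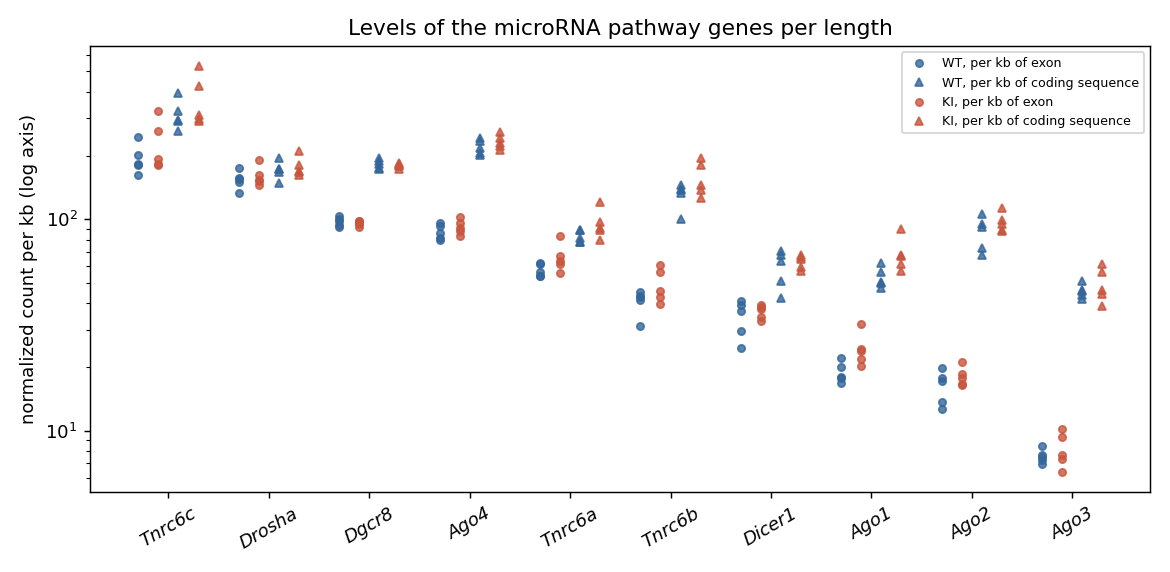
Level of each gene per length in normalized counts per kilobase (logarithmic axis), with each library as a point, WT in blue and KI in red, circles per kilobase of merged exon and triangles per kilobase of coding sequence. Genes are ordered by the WT mean per kilobase of exon, from Tnrc6c with 194 to Ago3 with 7.58, and the triangles keep Tnrc6c first and Ago3 last by WT mean but place Ago4 second.

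Within families, Ago4 and Tnrc6c took the largest parts in every library. Ago4 made up 67.1% ± 3.23 of the summed Argonaute level per kilobase of exon in WT and 64.6% ± 2.14 in KI (SD, n = 5), and Tnrc6c made up 66.0% ± 3.83 and 66.0% ± 2.63 of the Tnrc6 sum. Ago1 was the paralog with the lowest p, with 14.5%, 12.8%, 13.8%, 15.0% and 17.2% in WT libraries 1 to 5 and 16.3%, 15.2%, 15.9%, 18.2% and 19.3% in KI libraries 1 to 5. Only WT library 5 reached into the KI range, and the difference of 2.36 percentage points had p = 0.0635 (exact two-sided permutation of the genotype labels, adjusted p = 0.444 over 7 shares). The share was higher in KI in 5 of 5 pairs of equal number, and an exact permutation within pairs gave p = 0.0625, the smallest it can give with 5 pairs (adjusted p = 0.438 over 7 shares). The share of Ago2 was 12.4% in WT and 12.7% in KI, and that of Ago3 was 5.84% and 5.72%. None of the 7 shares passed, with or without adjustment, where the smallest p the test allows is 0.00794. Per kilobase of coding sequence, with UTR reads still in the counts, Ago4 held 54.3% in WT and 52.1% in KI. Ago2, with 21.3% and 21.7%, was then second.

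**Figure D4:**
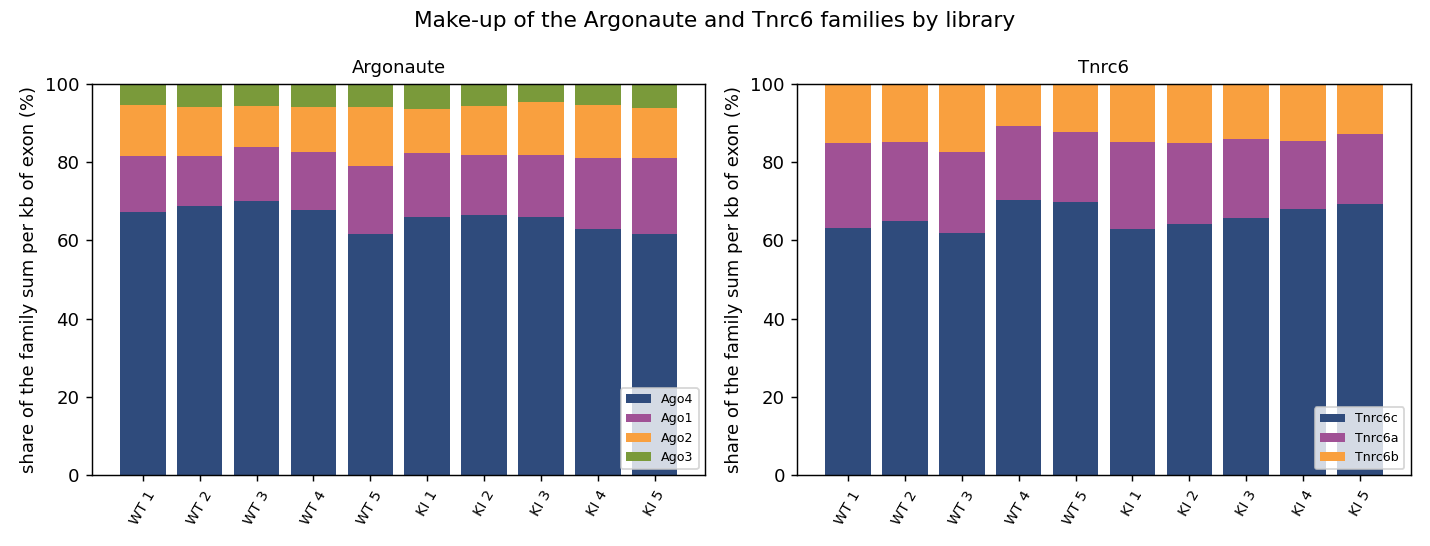
Share of each paralog in the summed level per kilobase of exon (percent, vertical axes) of the Argonaute family and the Tnrc6 family, with 1 stacked bar per library. Ago4 and Tnrc6c fill at least 61.7% of their bars in each of the 10 libraries.

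For each of the 3 genes with the lowest adjusted p, the genes whose log2 values were most alike over the 10 libraries were found among 15379 others. Ago1 was closest to Macf1 (Pearson's r = 0.971), Stat5b (0.963) and Tanc2 (0.961). Tnrc6a was closest to Atxn7 (0.969), Tbc1d1 (0.965) and Ankrd17 (0.965), and Tnrc6b to Fbf1 (0.951), 1700055D16Rik (0.942) and Cdh11 (0.935). These coefficients are descriptions over libraries that share genotype, number group and scaling, and the highest of many.

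The wider pathway was followed in 4 lists with 74 partner genes, all of them tested. In total 4 rose and 3 fell, 9.46% of the 74 against 22.9% of all genes (9.65% rose and 13.3% fell), with a median log2 change of 0.01. With the replicate block 14 of the 74 passed by limma, 18.9% against 32% of all genes in the same fit, and on library totals 28 did, 37.8% against 40.5%. Elongating spermatid markers and some round spermatid markers fell, and some somatic markers rose, in the same libraries, as given above.

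Of the 14 partners of nuclear processing and export, 1 rose and 0 fell. It was Adar, the adenosine deaminase that edits double-stranded RNA including some microRNA precursors, on chromosome 3. Its counts were 144, 110, 112, 114 and 150 in WT libraries 1 to 5 and 193, 196, 164, 168 and 204 in KI libraries 1 to 5. Every KI library was above every WT library, with a log2 change of 0.56 (SE 0.13, limma, adjusted p = 0.00562), which in libraries 4 and 5 alone was 0.50 with an adjusted p of 0.178. Ddx5, a DEAD-box helicase of the Microprocessor, also had no overlap, with 19200 to 22674 in WT and 16728 to 18385 in KI, but its log2 difference of −0.25 missed the threshold in limma (adjusted p = 0.0681) and passed it in edgeR (0.0490) and DESeq2 (0.00525). In libraries 4 and 5 alone it was −0.12 (limma, adjusted p = 0.688) and in libraries 1 to 3 alone −0.33 (0.00442), while on library totals it was −0.018 (0.855) and on the spermatocyte scale −0.12 (0.682), with all genes shifted upward on both scales.

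Of the 18 genes of Dicer and Argonaute loading and binding, 0 rose and 2 fell. Fxr1, an RNA-binding protein of the fragile X family that associates with Argonautes and, in germ cells, acts in spermatid translation, had the largest difference of all 74. Its counts were 12761, 13305, 12335, 8377 and 10268 in WT libraries 1 to 5 and 6046, 5997, 5746, 7007 and 6322 in KI libraries 1 to 5. The groups were separate, WT library 4 being the nearest to KI, and the log2 change was −0.86 (SE 0.12, limma, adjusted p = 1.38e-04). In libraries 4 and 5 alone it was −0.48 with an adjusted p of 0.0676. Hspa8, a chaperone that helps to load Argonautes, fell from 2648 ± 234 to 2041 ± 87.9 (SD, n = 5) with a log2 change of −0.37 (limma, adjusted p = 0.00504), and was chosen after its values were seen. On the spermatocyte scale Hspa8 did not pass, as the 3 partners that passed there were Adar, Fxr1 and Lin28a.

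Of the 14 genes of microRNA turnover and precursor control, 2 rose and 0 fell. Lin28a, which binds let-7 precursors and is found in undifferentiated spermatogonia, had counts of 81.6, 67.1, 94.2, 74.2 and 91.3 in WT libraries 1 to 5 and 132, 165, 135, 120 and 95.7 in KI libraries 1 to 5. All KI values were above all WT values, by a narrow margin for KI library 5, and the log2 change was 0.65 (SE 0.16, limma, adjusted p = 0.00791). In libraries 4 and 5 alone it was 0.38 with an adjusted p of 0.379. In the list of 7 spermatogonial markers, 0 rose and 1 fell, with log2 differences from −0.48 to 0.39. The part of cell make-up in the Lin28a change was not tested. Snd1, a nuclease of the Tudor family, rose from 257 ± 28.2 to 322 ± 16.4 (SD, n = 5), a log2 change of 0.33 (limma, adjusted p = 0.0306), and was also chosen after its values were seen. On the spermatocyte scale Snd1 did not pass.

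Of the 28 silencing effectors, which remove poly(A) tails and caps or block translation, 1 rose and 1 fell. They were both decapping genes. Dcp2 (log2 difference −0.02), Dcp1b (−0.07), Edc3 (−0.01), Patl1 (0.13) and Ddx6 (0.17), which belong to decapping as well, did not pass. Edc4, a scaffold that joins the decapping enzyme to its activators, had counts of 2189, 2216, 2109, 2223 and 1993 in WT libraries 1 to 5 and 2399, 2754, 2562, 2885 and 3132 in KI libraries 1 to 5, a log2 change of 0.35 (SE 0.09, limma, adjusted p = 0.00983). Dcp1a, a cofactor of the decapping enzyme, had 382, 451, 419, 313 and 338 in WT libraries 1 to 5 and 294, 271, 260, 246 and 307 in KI libraries 1 to 5. Its log2 change was −0.45 (SE 0.12, limma, adjusted p = 0.0108), and the groups of both genes were separate. On the spermatocyte scale neither passed in limma, with a larger log2 difference for Edc4 (0.48, adjusted p = 0.0865) and a smaller one for Dcp1a (−0.33, adjusted p = 0.200). Dcp1a also missed the threshold on library totals (−0.23, adjusted p = 0.130) and in libraries 4 and 5 alone (−0.24, adjusted p = 0.449).

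**Figure D5:**
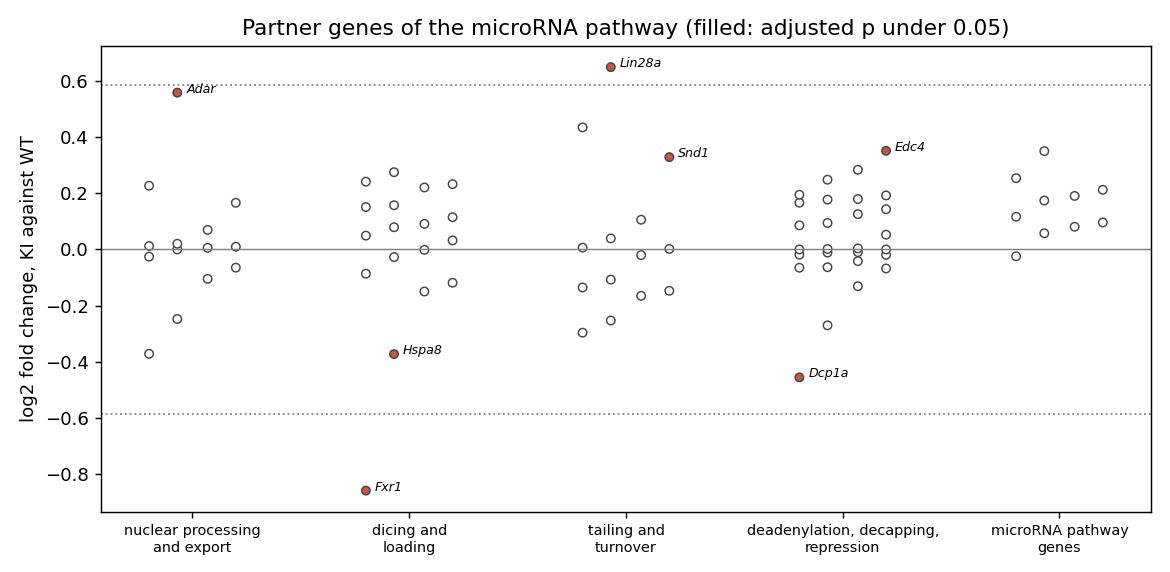
Log2 change of each of the 74 partner genes, KI against WT (vertical axis), in a column of points for each list, with the 10 machinery genes in the column at the right and dotted lines at a 1.5-fold change. Filled and named points passed the adjusted threshold: 4 of the 74 partners rose, 3 fell, and Fxr1 at −0.86 lies farthest from 0.

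Rows for transcripts that host microRNAs were found by their symbol, which had to be Mir followed by a number. Of these rows 4 were tested and 0 passed by limma, with 0 at an unadjusted p under 0.05. Mir22hg, which holds miR-22 in an exon, had 34.5, 39.3, 29.0, 23.1 and 39.5 in WT libraries 1 to 5 and 57.5, 49.5, 42.2, 34.6 and 33.1 in KI libraries 1 to 5, with a log2 difference of 0.38 (SE 0.21, limma, adjusted p = 0.233). Its values overlapped between genotypes, as did those of Mir17hg, the host of the miR-17 to miR-92a cluster. Mir17hg had a log2 difference of −0.26 (SE 0.22, limma, adjusted p = 0.435) and Mir124-2hg one of −0.27 (SE 0.31, adjusted p = 0.593). Mir9-3hg, which holds miR-9 in an intron, had 126 ± 6.49 in WT and 126 ± 15.5 in KI (SD, n = 5), with a log2 difference of −0.0089 (limma, adjusted p = 0.970). Mirg, a transcript of the imprinted microRNA cluster on chromosome 12, lies outside that symbol rule and was chosen after its values were seen. It had 125 ± 12.1 in WT and 93.3 ± 21.0 in KI (SD, n = 5). Its log2 difference of −0.45 missed the threshold (limma, adjusted p = 0.0532), with an unadjusted p of 0.0125. The level of a host transcript in poly(A) RNA is not a measure of the mature microRNA.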

How the data were processed

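Each of the 10 libraries came from the germ cells of a single mouse aged 45 days, and was placed in WT or KI by its labels. Read alignment by the authors used STAR and mm10, and reads were assigned to genes of RefSeq_v91 by the E/M method of Partek. What they deposited is a signal, the normalized count, which is the read count over the DESeq2 size factor of that library. Dividing by the value of 1 read returned whole reads (within 0.01) for 100% of values under 5000 reads, with 0 columns unassigned. In a library with no read of a gene, up to 3 reads, a normalized count of 2.61 to 3.62, remain possible, for counting error only.

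Normalized counts were compared on the log2(value + 1) scale in limma (version 3.58.1, under R 4.3.3), allowing a trend of variance with expression, on genes passing filterByExpr of edgeR (version 4.0.16), with Benjamini-Hochberg adjustment over all of them. Shares within families were tested by exact permutation of the genotype labels, two-sided. Alternatives were edgeR and DESeq2 (version 1.42.0) on the recovered reads, other scalings, pseudocounts and filters, a replicate block, the library number groups, and leaving out each library. Statistics were tested on simulated data. Exon lengths and overlaps came from GENCODE vM21.

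The 10 genes, the lists and the tests were chosen with earlier results of these data known. Genes named are the 10, Ddx25, differentially expressed partners or otherwise the 2 of each list with the lowest adjusted p, the 3 genes most alike to each of 3 members, and the 3 microRNA rows with the lowest adjusted p. Hspa8, Snd1, Mirg and Mir9-3hg are named outside this rule. After genotype means were removed, libraries of equal number correlated with r of 0.306, 0.105, 0.280, 0.216 and 0.462, all over 0.1. Libraries of unequal number were not correlated for reference, and both genotypes share the library number groups. These values therefore cannot show whether the numbers pair the libraries, and the replicate block remains an assumption. Between any pair of replicates chi-square was 2.68 to 46.7 times its degrees of freedom, so all were kept as separate libraries.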

Additional observations from a re-analysis of the deposited data

Results flagged for a closer look

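Of 58 groups of 5 libraries examined, 1 held a library far from the others by Dixon's criterion, which chance flags in about 1 of 20 groups. It was Tnrc6b in WT library 4, with a normalized count of 542.6 where the next lowest WT library had 720, a gap of 0.726 of the whole range. Without that library the log2 difference of Tnrc6b was 0.16 (limma, adjusted p = 0.410), and the cause was not tested.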

How the results depend on the processing

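Of the 10 machinery genes, 0 passed the adjusted threshold, and 0 when each library was left out in turn. Scaling to library totals gave 7, and the replicate block, the term for libraries 4 and 5, and libraries 4 and 5 alone gave 1 each (Ago1, Ago1 and Tnrc6b, the last also the 1 differentially expressed). Of the 74 partners 7 passed (9.46% against 22.9% of all genes), and 28 on library totals (37.8% against 40.5%), 3 on the spermatocyte scale (4.05% against 14.7%), 14 with the replicate block (18.9% against 32%), 14 with the term (18.9% against 31.3%), 16 in libraries 1 to 3 alone (21.6% against 31.3%) and 2 in libraries 4 and 5 alone (2.7% against 11.1%). Apart from Ago1, the replicate block changed no call among the 10 genes. Over all genes, 3529 passed, against 6238 on library totals, 2260 on the spermatocyte scale (median log2 change 0.15, 54.5% of differentially expressed genes upward) and 1704 in libraries 4 and 5 alone (30.1% upward).

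The sign of Dgcr8 turned on library totals (0.20) and the spermatocyte scale (0.10), which shift all genes alike, and measured from the all-gene median it stayed at −0.05. Signs turned for Dicer1 (−0.032) and Tnrc6b (−0.022) in libraries 1 to 3, and for Drosha without KI library 5 (leave-one-out range −0.0049 to 0.11). Shares turned sign in libraries 1 to 3 for Tnrc6a (0.046 points), Tnrc6b (−0.97) and Tnrc6c (0.92), and in libraries 4 and 5 for Ago2 (−0.20). Leaving out 1 library gave −0.26 to 0.98 for Ago2, −0.30 to 0.14 for Ago3, −0.89 to 0.29 for Tnrc6a, −0.54 to 1.08 for Tnrc6b and −1.05 to 1.03 for Tnrc6c. Apart from Dgcr8, the cause was not tested.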
